A study of Homo sapiens with 6 samples.

Results

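The cytosolic chaperonin CCT, also called TRiC, is built from the products of 8 genes, TCP1 and CCT2, CCT3, CCT4, CCT5, CCT6A, CCT7 and CCT8. They were chosen by symbol as the subunits of a single obligate complex, and all 8 were found among the 15832 symbols of the expression table. All 8 passed the filter of a mean of at least 1 TPM, which left 10966 genes for testing. Expression was profiled by RNA sequencing in AsPC-1, an established human pancreatic cancer cell line. The cells carried an siRNA against VCPIP1 (siVCPIP1, 3 libraries) or a control siRNA (siControl, 3 libraries), each 48 h after transfection. All 6 libraries are of this line, and the labels name no other agent. VCPIP1 is a deubiquitinase that works with the ATPase p97. Neither the origin of each library (its own culture or a shared one) nor the number of siRNAs is stated in the labels. The p-values therefore rest on library-to-library spread, part or all of which may be technical.

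CCT is a double-ring folding chamber in which each subunit occupies its own fixed place in a ring. It uses ATP to close over newly made proteins, of which actin and tubulin are the best known, and many WD-repeat proteins also need it. The cofactor prefoldin and the HSP70 system deliver clients to it, and phosducin-like proteins act on it directly. Because every subunit has its own gene, the mRNA levels of the 8 genes can be set against each other within a library.

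The subunits are related proteins and share the run of glycine, aspartate, glycine and threonine that forms part of the ATP site. The coding sequence around this run is shown for each subunit to let the same stretch of the protein be compared between members whose base composition differs, a property taken up again with the whole transcripts. Each line gives 60 bases, 5′ to 3′ on the coding strand, of the GENCODE 29 coding sequence (GRCh38), with the 12 bases of the run in capitals. The run was searched in frame with any codon for each residue. Each member held it 1 time, and 1.04% of 15323 coding sequences of genes in the table held it 1 or more times.
CCT7: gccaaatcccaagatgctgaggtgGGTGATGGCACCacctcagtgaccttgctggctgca
CCT3: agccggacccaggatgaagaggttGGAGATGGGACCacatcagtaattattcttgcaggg
CCT4: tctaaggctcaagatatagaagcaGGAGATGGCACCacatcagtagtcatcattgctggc
CCT8: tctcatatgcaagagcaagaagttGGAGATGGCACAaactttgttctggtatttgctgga
CCT2: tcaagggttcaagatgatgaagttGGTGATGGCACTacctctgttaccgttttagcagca
CCT5: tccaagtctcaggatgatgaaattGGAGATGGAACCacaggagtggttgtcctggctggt
CCT6A: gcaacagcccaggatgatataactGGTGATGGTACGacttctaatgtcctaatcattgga
TCP1: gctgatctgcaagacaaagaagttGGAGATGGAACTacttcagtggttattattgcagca

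Within these windows the third bases of codons were 55.0% G or C in CCT7 and 40.0% in CCT3. The shares were 35.0% in CCT5, 30.0% in CCT4, 25.0% in CCT6A and in CCT8, 20% in CCT2 and 15.0% in TCP1. CCT3 and CCT5 lay close together and CCT6A and CCT8 were equal, so windows of this length neither rank all members nor divide them into groups.

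The targeted gene was checked first. VCPIP1 stood at 0.12, 0.11 and 0.27 TPM in siVCPIP1 libraries, against 2.93, 3.06 and 2.24 TPM in siControl libraries. All siVCPIP1 values lay below all siControl values, and the log2 change was -1.68 (SE 0.13, limma, Benjamini-Hochberg adjusted p = 2.0e-05). This is a log2(TPM + 1) scale, which understates the change of low genes. The VCPIP1 transcript has 38.6% GC. Among tested genes of 31.8% to 39.2% GC the median log2 change was -2.24, and 98.1% were called lower. On this scale, and as a call, the decrease therefore does not set VCPIP1 apart from genes of like GC content. In mean TPM, VCPIP1 was 16.5-fold lower in siVCPIP1 libraries. That ratio was not compared with the ratios of those genes, so the scale limits what the comparison can show. The 2 groups also differed as whole libraries. The median gene had 1.26, 1.24 and 2.26 TPM in siVCPIP1 libraries, against 6.70, 7.44 and 6.18 TPM in siControl libraries, and the median log2 change of all genes tested was -1.12. Of these genes, 7241 were lower and 1646 higher at an adjusted p of 0.05 (limma). The third siVCPIP1 library stood nearer to the siControl libraries than the first and second did. Among keratins of simple epithelia, KRT8, KRT18 and KRT19 were high in every library and KRT7 was low, at 5.2 to 7.89 TPM in siVCPIP1 libraries and 2.13 to 3.12 TPM in siControl libraries. KRT18 stood between 6959.8 and 7958.45 TPM in siVCPIP1 libraries and between 4469.07 and 5243.59 TPM in siControl libraries. Of the 9 epithelial markers listed, 5 rose and 4 fell, beside 15.0% higher and 66.0% lower among all genes tested. The 5 have 52.8% to 62.9% GC and the 4 have 46.3% to 52.9% GC. EPCAM was among those that fell, at 5.96 ± 4.97 TPM in siVCPIP1 libraries and 171.9 ± 21.2 TPM in siControl libraries (SD, n = 3 each). Of 12 markers of leukocytes, endothelium, fibroblasts, acinar and islet cells, 8 were in the table. CD68 stood between 120.46 and 157.56 TPM in siVCPIP1 libraries and between 142.54 and 148.0 TPM in siControl libraries, and none of the other 7 exceeded 1.27 TPM in any library. The summed level of the 8 was 121.99 to 158.96 TPM in siVCPIP1 libraries and 145.11 to 151.1 TPM in siControl libraries. In such bulk libraries, fewer cells of a kind and less RNA per cell cannot be told apart.

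Of the 8 chaperonin genes, 7 fell and none rose after siVCPIP1 (limma, adjusted p under 0.05), where 66.0% of all genes tested were called lower and 15.0% higher. At an unadjusted p of 0.05 there was likewise none higher. Most genes tested were thus called lower, as most members were, and the members differed from each other in the size of the change. Their median log2 change was -2.78, beside -1.12 over all genes tested, and the changes ran from -4.07 for TCP1 to 0.09 for CCT7. All 7 called members had siVCPIP1 and siControl libraries that did not overlap, as did 67.9% of all genes tested in the lower direction and 18.2% in the higher one, which no member joined. When libraries were scaled by median-of-ratios size factors in place of TPM as deposited, 6 members were lower and CCT3 and CCT7 were higher, where 45.1% of genes were lower and 40.3% higher. Quantile normalization left 7 members lower and none higher, where 38.8% of genes were lower and 42.2% higher.

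**Figure D1:**
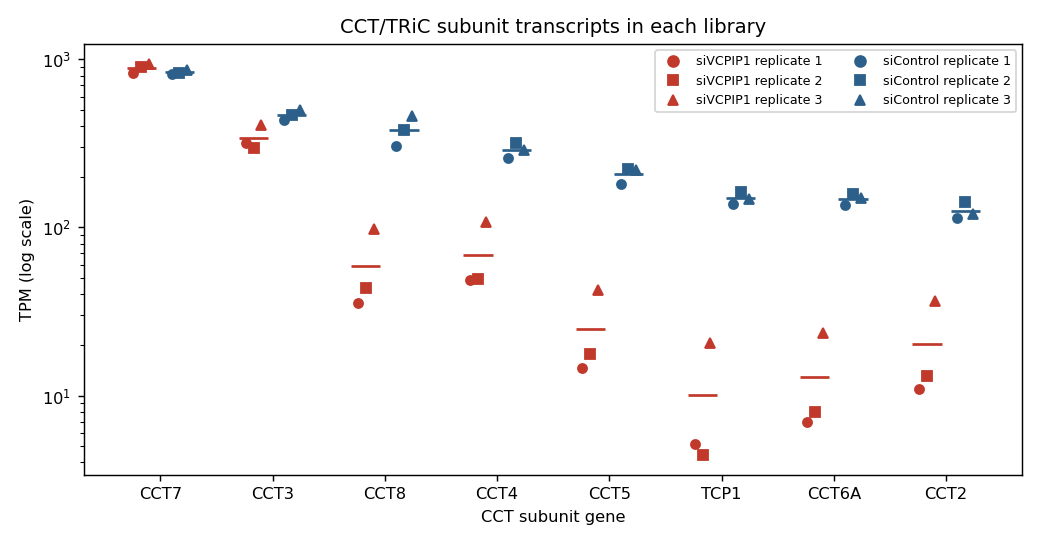
TPM of the 8 chaperonin subunit genes in each library, on a log axis, with siVCPIP1 libraries left of siControl libraries and a bar at each group mean. CCT7 overlaps between the groups, while TCP1 stands at 4.42 to 20.62 TPM in siVCPIP1 libraries and 138.75 to 162.05 TPM in siControl libraries.

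CCT7 encodes the eta subunit and was the most abundant member in all 6 libraries. It stood at 825.6, 905.43 and 943.06 TPM in siVCPIP1 libraries, against 812.75, 829.37 and 863.23 TPM in siControl libraries. The groups overlapped, since the lowest siVCPIP1 library lay between the siControl libraries. The mean was 891.4 ± 59.98 TPM in siVCPIP1 libraries and 835.1 ± 25.7 TPM in siControl libraries (SD, n = 3 each). The log2 difference was 0.09 (SE 0.11, 95% interval -0.15 to 0.34) and was not called by limma (adjusted p = 0.45). The lower end of this interval is a smaller decrease than the estimate for any other member. Under median-of-ratios scaling, CCT7 was higher by 1.32 on the log2 scale (adjusted p = 0.00022, limma).

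CCT3, the gamma subunit, was second in all 6 libraries. It stood at 319.64, 296.28 and 407.1 TPM in siVCPIP1 libraries, against 433.38, 465.33 and 501.36 TPM in siControl libraries. Every siVCPIP1 library lay below every siControl library, by a small margin between the third siVCPIP1 library and the lowest siControl library. CCT3 was 1.37-fold lower (log2 change -0.46, SE 0.15, 95% interval -0.79 to -0.13, limma adjusted p = 0.016), but median-of-ratios scaling turned it to 0.77 and removal of the trend on GC content and length within each library turned it to 0.69. The call was also lost without the third siControl library (-0.41, adjusted p = 0.056), without the first siVCPIP1 library (-0.42, adjusted p = 0.065) and without the second siVCPIP1 library (-0.37, adjusted p = 0.072).

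CCT4 encodes the delta subunit, which can assemble into rings of its own kind when the human protein is made alone in bacteria. It stood at 48.8, 49.59 and 108.27 TPM in siVCPIP1 libraries, against 259.41, 316.4 and 290.22 TPM in siControl libraries. The first and second siVCPIP1 libraries were close together, the third was higher, and all 3 lay below every siControl library. CCT4 was 4.19-fold lower (log2 change -2.15, SE 0.28, limma adjusted p = 0.00012). This call did not hold once the GC and length trend was removed (-0.05, adjusted p = 0.76).

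CCT8, the theta subunit, is known in Caenorhabditis elegans as a member whose higher expression raises chaperonin assembly. It stood at 35.54, 43.58 and 97.31 TPM in siVCPIP1 libraries, against 305.28, 381.14 and 459.91 TPM in siControl libraries. The siControl values were more spread than those of any other member but still did not overlap with the siVCPIP1 values. CCT8 was 6.50-fold lower (log2 change -2.80, SE 0.34, limma adjusted p = 7.4e-05). With the GC and length trend removed, the change was -0.52 (adjusted p = 0.041).

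CCT2, the beta subunit, has also been described outside the ring as a receptor for the autophagy of aggregated proteins. It stood at 11.01, 13.09 and 36.46 TPM in siVCPIP1 libraries, against 113.77, 141.23 and 120.51 TPM in siControl libraries. Again the third siVCPIP1 library was the highest of its group, and the groups did not overlap. CCT2 was 6.20-fold lower (log2 change -2.76, SE 0.38, limma adjusted p = 0.00015) and stood at -0.58 with the GC and length trend removed (adjusted p = 0.029).

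CCT5 encodes the epsilon subunit, the other member whose human protein forms rings by itself in bacteria. Its level was 14.56, 17.69 and 42.22 TPM in siVCPIP1 libraries, against 180.28, 222.25 and 220.87 TPM in siControl libraries. The groups did not overlap, and even the highest siVCPIP1 library stayed far below the lowest siControl library. CCT5 was 8.37-fold lower (log2 change -3.16, SE 0.34, limma adjusted p = 4.0e-05).

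CCT6A, the zeta subunit, is the broadly expressed form of a subunit that has a testis form encoded by CCT6B. CCT6A stood at 7, 8 and 23.49 TPM in siVCPIP1 libraries, against 135.11, 158.29 and 149.08 TPM in siControl libraries. No siVCPIP1 library came near the siControl range, and the third was the highest of the 3. CCT6A was 11.5-fold lower (log2 change -3.62, SE 0.38, limma adjusted p = 3.5e-05). CCT6B was scarce in both groups, at 0.27 ± 0.09 TPM in siVCPIP1 libraries and 0.40 ± 0.06 TPM in siControl libraries (SD, n = 3 each), and it was below the filter.

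TCP1, the alpha subunit and the founding member of the family, had the largest change of the 8. It stood at 5.16, 4.42 and 20.62 TPM in siVCPIP1 libraries, against 138.75, 162.05 and 147.96 TPM in siControl libraries. The siControl libraries were close together, while the third siVCPIP1 library was several times above the first and second. TCP1 was 14.9-fold lower (log2 change -4.07, SE 0.46, 95% interval -5.11 to -3.02, limma adjusted p = 5.0e-05). With the GC and length trend removed, TCP1 (-1.86, adjusted p = 0.00061), CCT6A (-1.47, adjusted p = 0.00043) and CCT5 (-1.16, adjusted p = 0.0012) still had the largest decreases.

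The order of the members was the same in all 3 siVCPIP1 libraries, with CCT7 highest, then CCT3, CCT4, CCT8, CCT5, CCT2 and CCT6A, and TCP1 lowest. In siControl libraries CCT7 and CCT3 also led, followed by CCT8, CCT4 and CCT5, and CCT2 was lowest. TCP1 and CCT6A, the neighbours above CCT2, changed places between siControl libraries and did not differ beyond their spread. In siControl libraries the ranges of CCT3 and CCT8, of CCT8 and CCT4, and of CCT6A and CCT2 overlapped, although CCT3, CCT8, CCT4 and CCT5 kept this order within every library. CCT4 and CCT8 stood in opposite order in the 2 groups. In siVCPIP1 libraries the ranges of all neighbours from CCT4 down overlapped, and CCT7, CCT3 and the remaining members were separate.

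The balance between members was then measured within each library on TPM as deposited, which multiplying a library by a constant cannot alter. Quantile normalization can alter it. The range of the log2 changes of the members was 3.32 under it and 4.16 as deposited. The SD over the 8 members of log2 TPM was 2.64, 2.62 and 1.98 in siVCPIP1 libraries, against 0.97, 0.89 and 1.01 in siControl libraries. The groups did not overlap, and the mean was 2.41 ± 0.37 in siVCPIP1 libraries and 0.96 ± 0.06 in siControl libraries (SD, n = 3 each). A two-sided exact permutation test gave p = 0.1, the smallest that 3 libraries against 3 allow. The most abundant member exceeded the least abundant 160-fold, 205-fold and 45.7-fold in siVCPIP1 libraries, against 7.14-fold, 5.87-fold and 7.16-fold in siControl libraries.

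**Figure D2:**
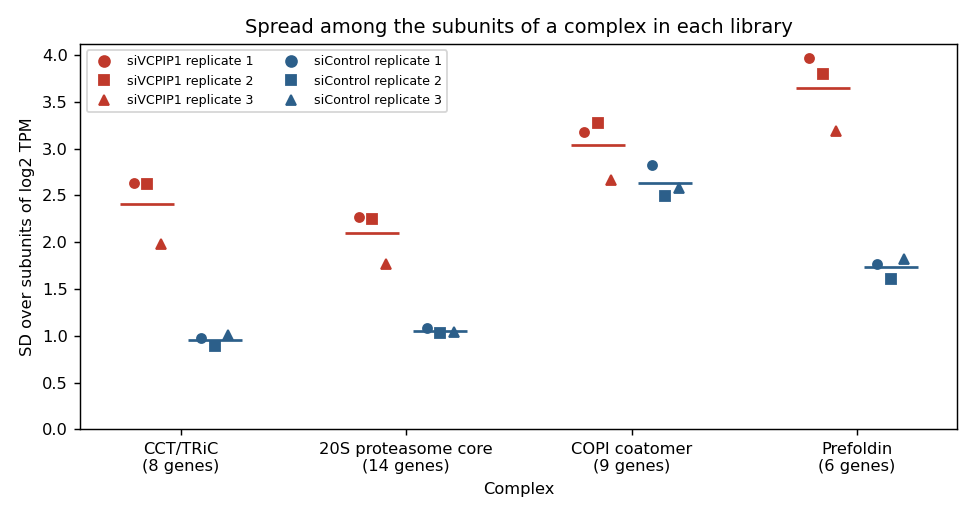
Spread of subunit mRNA levels within each library, as the SD of log2 TPM over the members of 4 complexes, with siVCPIP1 libraries left of siControl libraries in each pair. The chaperonin stands at 1.98 to 2.64 in siVCPIP1 libraries and 0.89 to 1.01 in siControl libraries.

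Other obligate complexes gave the following values on the same measure. The 14 subunits of the 20S proteasome core, another stacked ring, had an SD of 2.10 ± 0.28 in siVCPIP1 libraries and 1.05 ± 0.03 in siControl libraries (exact permutation p = 0.1). Prefoldin, with 6 subunits, had 3.65 ± 0.41 in siVCPIP1 libraries and 1.73 ± 0.11 in siControl libraries (exact permutation p = 0.1). The COPI coat, with 9 genes tested, had 3.04 ± 0.33 in siVCPIP1 libraries and 2.64 ± 0.17 in siControl libraries (exact permutation p = 0.2). These genes include paralogs of the same subunit, COPG1 with COPG2 and COPZ1 with COPZ2. COPZ2 was scarce, at 1.17 to 1.95 TPM in siVCPIP1 libraries and 0.48 to 1 TPM in siControl libraries. The COPI value depends on this list, and a list without paralogs was not tested. With the genes as listed, the chaperonin was thus 1 of 3 complexes among these 4 whose groups did not overlap.

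The summed level of the 8 members was 1267.31, 1338.08 and 1678.53 TPM in siVCPIP1 libraries, against 2378.73, 2676.06 and 2753.14 TPM in siControl libraries (exact permutation p = 0.1), and its direction turned under median-of-ratios scaling, to 2155 ± 208 in siVCPIP1 libraries and 1678 ± 99.8 in siControl libraries (SD, n = 3 each). CCT7 carried much of this sum. Without CCT7 and CCT3, the other 6 summed to 195.6 ± 115 TPM in siVCPIP1 libraries and 1301 ± 146 TPM in siControl libraries (SD, n = 3 each, exact permutation p = 0.1). These 6 are the members that fell most in the same libraries, so the separation of their sum follows from the choice and is no further evidence.

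As a share of the summed TPM of the 8 members, CCT7 held 65.1%, 67.7% and 56.2% in siVCPIP1 libraries, against 34.2%, 31.0% and 31.4% in siControl libraries. All siVCPIP1 values were higher, by 30.8 percentage points on average. CCT3 held 23.9 ± 1.57% in siVCPIP1 libraries and 17.9 ± 0.48% in siControl libraries (SD, n = 3 each). CCT8 held 3.95 ± 1.61% in siVCPIP1 libraries and 14.6 ± 1.96% in siControl libraries, and TCP1 held 0.66 ± 0.50% in siVCPIP1 libraries and 5.75 ± 0.35% in siControl libraries. For each of the 8 members the shares of the 2 groups did not overlap, with an exact permutation p of 0.1 each and 0.1 after Benjamini-Hochberg adjustment over the 8. CCT4 held 4.67 ± 1.54% in siVCPIP1 libraries and 11.1 ± 0.66% in siControl libraries, yet its log2 TPM relative to the mean log2 TPM of the 8 was 0.26 higher in siVCPIP1 libraries (exact permutation p = 0.1). Shares sum to 100 within a library, so a higher share of CCT7 lowers the others by construction.

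**Figure D3:**
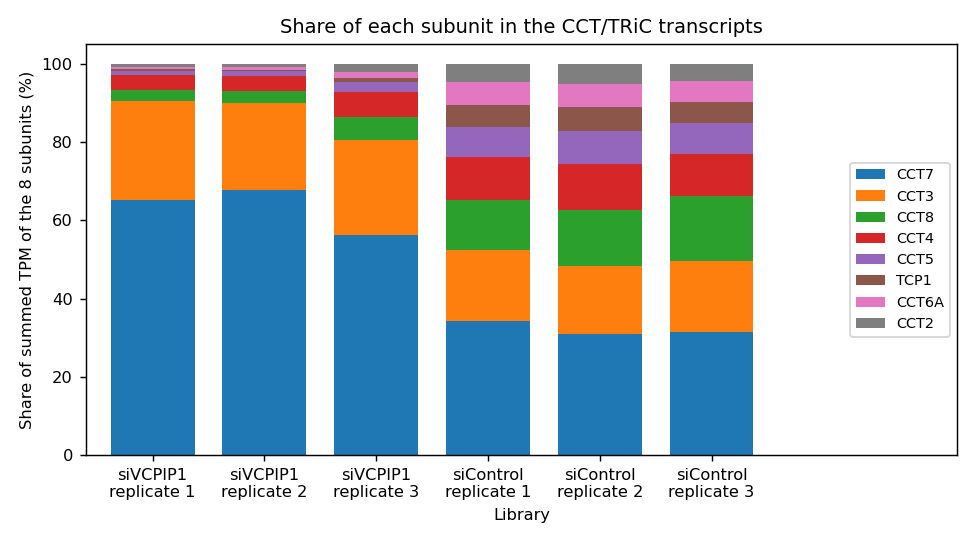
Share of the summed TPM of the 8 subunit genes held by each member, in percent, with bars stacked per library and siVCPIP1 libraries left of siControl libraries. CCT7 makes up 56.2% to 67.7% in siVCPIP1 libraries and 31.0% to 34.2% in siControl libraries.

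To test each member against the complex, its log2(TPM + 1) minus the mean of the other 7 was compared between groups, with every other gene tested set against the mean of all 8. Because the chaperonin mean fell more than most genes, 65.3% of all genes tested were called higher on this measure and 8.23% lower. CCT7 (log2 ratio change 2.81, limma adjusted p = 4.3e-05) and CCT3 (2.18, limma adjusted p = 0.00011) rose relative to the rest of the complex. TCP1 (-1.94, limma adjusted p = 4.9e-05), CCT6A (-1.43, limma adjusted p = 0.00017) and CCT5 (-0.91, limma adjusted p = 0.0059) fell relative to it. CCT4 (0.25, 95% interval -0.35 to 0.84), CCT2 (-0.45, 95% interval -0.999 to 0.09) and CCT8 (-0.49, 95% interval -1.12 to 0.13) were not called, and the intervals allow changes of the stated sizes. Without the third siVCPIP1 library, CCT2 (-0.60, limma adjusted p = 0.0023) and CCT8 (-0.54, limma adjusted p = 0.010) were called lower too, as was CCT8 with a pseudocount of 5 TPM (-0.62, limma adjusted p = 0.037), and without the second siControl library CCT5 was not (-0.90, limma adjusted p = 0.0501). CCT4 was called higher relative to the complex with the GC and length trend removed (0.50, limma adjusted p = 0.019). The ratio changes of the 8 members cancel out by construction, so the rises of CCT7 and CCT3 lower the ratios of the others. These ratios restate the log2 changes of the members against each other and are no further evidence.

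**Figure D4:**
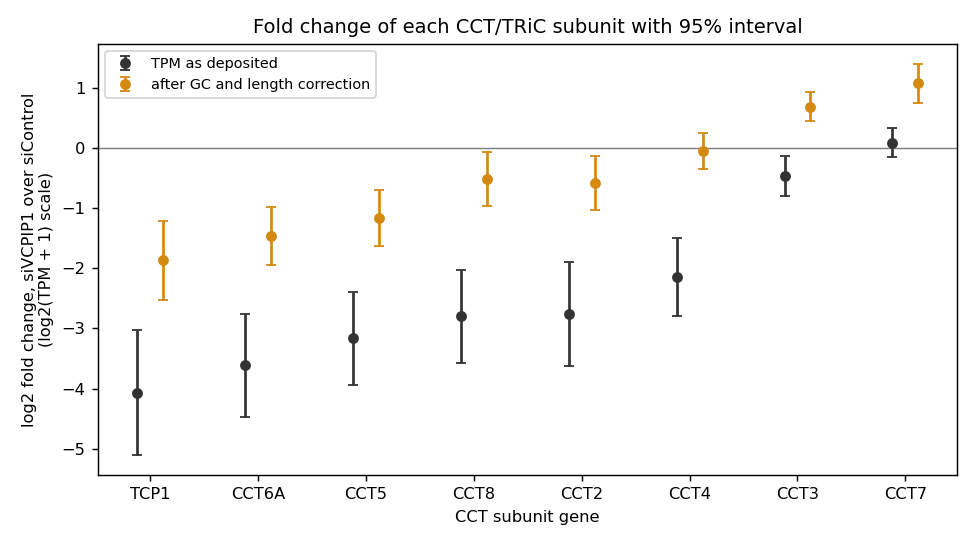
Log2 change, siVCPIP1 over siControl, of each subunit gene with its 95% interval from limma, on TPM as deposited and after removal of the GC and length trend. CCT3 and CCT7 stand at -0.46 and 0.09 as deposited and at 0.69 and 1.08 after removal, and TCP1 is lowest in both, at -4.07 and -1.86.

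CCT7 and CCT3 stand apart from the other 6 members in base composition, as they do in their changes. The transcripts of CCT7 and CCT3 have 51.8% and 51.2% G and C, and the third codon bases 57.7% and 56.6%. In the other 6 members the transcripts have 43.1% to 44.7% and the third codon bases 31.7% to 50.4%. Coding lengths are nearly equal, at 1596 to 1671 bases, and transcript lengths run from 1916 to 3675 bases. Over the 8 members the log2 change and transcript GC content had a Pearson r of 0.93 and a Spearman rho of 0.74. These points share the same 6 libraries, and the siControl level varies along with them (r = 0.87 between the log2 change and the log2 mean siControl TPM).

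The whole table had a trend of the same sign, with a Pearson r of 0.72 across 10917 genes that have a transcript in GENCODE 29. Among tested genes of 41.7% to 44.3% GC, the bin of TCP1, CCT2, CCT6A and CCT8, the median log2 change was -2.05 and 97.2% were called lower. The bin of CCT4 and CCT5, from 44.3% to 47.2% GC, had a median of -1.79 and 93.5% called lower. In the bin of CCT3 and CCT7, from 50.4% to 53.5% GC, the median was -0.93, with 70.9% called lower and 6.42% higher. The 6 members that fell most were thus each below the median of their bin, and CCT3 and CCT7 were above theirs. After removal of that trend, and of the one on transcript length, from every library, 5 members were lower, CCT3 (0.69, limma adjusted p = 0.00058) and CCT7 (1.08, limma adjusted p = 0.00030) were higher, and CCT4 was not called, where 31.7% of genes were lower and 37.2% higher. The distance between the extreme members was 4.16 on the log2 scale as deposited and 2.94 after removal, with TCP1 lowest and CCT7 highest in both. The bins were not matched for expression level. Members had mean siControl levels of 125.2 to 835.1 TPM, and the log2(TPM + 1) scale understates the changes of lower genes more. The median log2 change of all genes tested was -1.37 with a pseudocount of 0.1 TPM and -0.62 with 5 TPM. Distances of members from a bin median therefore depend on this scale.

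**Figure D5:**
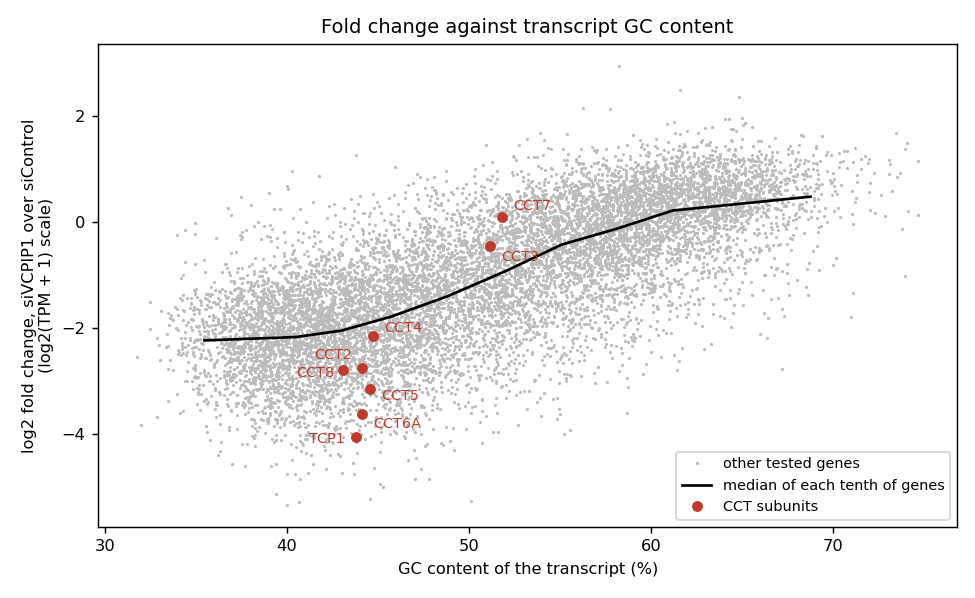
Log2 change, siVCPIP1 over siControl, against transcript GC content in percent, for the genes tested with the 8 subunit genes marked. CCT3 and CCT7 lie at 51.2% and 51.8% GC and the other 6 between 43.1% and 44.7%.

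The genes lie on 7 chromosomes (GRCh38, GENCODE 29). TCP1 is at chr6:159778498-159789749 on the minus strand, CCT2 at chr12:69585334-69601570 on the plus strand, and CCT3 at chr1:156308968-156367873 on the minus strand. CCT4 is at chr2:61868089-61888804 on the minus strand and CCT7 at chr2:73233420-73253021 on the plus strand. CCT5 is at chr5:10249921-10266412 on the plus strand, CCT6A at chr7:56051630-56063989 on the plus strand, and CCT8 at chr21:29055805-29073797 on the minus strand. CCT4 and CCT7, the 2 members on the same chromosome, had log2 changes of -2.15 and 0.09.

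For 5 members a protein-coding gene starts on the opposite strand within 1000 bases of their own start, a positional choice made after the values were seen. Their calls stand beside 66.0% lower and 15.0% higher among all genes tested. MRPL18, a mitochondrial ribosomal protein gene beside TCP1, had 17.9 ± 13.8 TPM in siVCPIP1 libraries and 126.5 ± 16.7 TPM in siControl libraries and fell (log2 change -2.98, limma adjusted p = 0.00016). PSPH, which encodes the last enzyme of serine synthesis and starts beside CCT6A, had 5.18 ± 1.76 TPM in siVCPIP1 libraries and 21.2 ± 1.28 TPM in siControl libraries and fell (log2 change -1.88). ATPSCKMT beside CCT5 also fell (log2 change -1.76), at 0.91 ± 0.53 TPM in siVCPIP1 libraries and 5.33 ± 0.36 TPM in siControl libraries. COMMD1 beside CCT4 was not called, at 32.4 ± 7.41 TPM in siVCPIP1 libraries and 36.4 ± 3.22 TPM in siControl libraries (limma adjusted p = 0.40). PRADC1 beside CCT7 was not called either, at 51.4 ± 6.83 TPM in siVCPIP1 libraries and 52.9 ± 7.58 TPM in siControl libraries (limma adjusted p = 0.83), all means being given with SD over 3 libraries. CCT4 and COMMD1, whose starts are 80 bases apart, thus had different values, -2.15 and -0.19 on the log2 scale, though the difference between them was not tested. MRPL18, PSPH and COMMD1 have 48.0%, 49.8% and 48.8% GC, in a bin where 85.2% of tested genes were called lower. ATPSCKMT has 41.7% GC, in a bin with 97.9% lower, and PRADC1 58.2%, in a bin with 36.7% lower. Whether neighbours share regulation with the members was not tested.

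Some reads of the members could belong to other loci. GENCODE 29 names pseudogenes after TCP1, CCT4, CCT5, CCT6A, CCT7 and CCT8, between 1 and 4 each, and none of these has a row in the table. TCP1 overlaps ACAT2 on the opposite strand by 558 bases, and ACAT2 stood at 19.3 ± 6.60 TPM in siVCPIP1 libraries and 52.1 ± 3.36 TPM in siControl libraries (SD, n = 3 each). CCT4 overlaps COMMD1 by 81 bases, and CCT3 overlaps TSACC, which lies on the other strand. Annotated antisense RNAs with no row in the table lie over CCT4 and CCT5, and a sense intronic RNA, also with no row, over CCT8. Whether the authors' counting used strand is not given in the sources used here, so reads of these overlaps cannot be assigned.

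The genes that work with the chaperonin were described from lists of its cofactors and clients. Their counts stand beside the 66.0% of all genes tested that were called lower and the 15.0% called higher, or 45.1% lower and 40.3% higher under median-of-ratios scaling. All 3 tested phosducin-like and thioredoxin-like cofactors fell. PDCL3, which takes part in actin and tubulin folding, had 3.60 ± 2.75 TPM in siVCPIP1 libraries and 25.2 ± 2.01 TPM in siControl libraries (log2 change -2.66, limma adjusted p = 0.00014). TXNDC9 changed by -2.81 and PDCL, the cofactor for G protein beta subunits, by -1.60 on the log2 scale. With the GC and length trend removed, 2 of the 3 were lower and 1 was higher, beside 31.7% lower and 37.2% higher among all genes.

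Prefoldin was divided. Of its 6 subunits 3 fell, 1 rose and 2 were not called, beside 66.0% lower and 15.0% higher among all genes tested. Their median log2 change was -0.65 beside -1.12 over all genes. Under median-of-ratios scaling 2 were lower and 4 higher, beside 45.1% lower and 40.3% higher among all genes tested. VBP1 stood at 1.91, 2.38 and 4.79 TPM in siVCPIP1 libraries, against 47.07, 58.52 and 45.91 TPM in siControl libraries, and PFDN4 fell by 3.25 on the log2 scale. PFDN5, the most abundant subunit, stood at 1847.36, 1746.33 and 1576.22 TPM in siVCPIP1 libraries, against 942.22, 844.1 and 1055.84 TPM in siControl libraries (log2 change 0.87, limma adjusted p = 0.00022). Its siVCPIP1 libraries were all above its siControl libraries, while those of VBP1 were all below.

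Among 6 tubulin-folding cofactors, which act after the chaperonin, 3 fell, 1 rose and 2 were not called (median -0.36), beside 66.0% lower and 15.0% higher among all genes tested. Under median-of-ratios scaling 2 were lower and 4 higher. TBCA, which holds beta-tubulin, and TBCE fell, with changes of -2.46 and -1.72 on the log2 scale. ARL2, a small GTPase of this pathway, rose by 1.46, with 475.7 ± 88.6 TPM in siVCPIP1 libraries and 171.0 ± 26.8 TPM in siControl libraries (SD, n = 3 each).

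Of 13 actins and tubulins, the abundant clients of the chaperonin, 10 fell, 1 rose and 2 were not called. Among all genes tested, 66.0% were lower and 15.0% higher. The median log2 change of the 13 was -0.52 beside -1.12 over all genes. Only 1 of the 13 was lower under median-of-ratios scaling, and 7 were higher. The count of 10 was 6 without the second siControl library, 6 without the third, 5 without the first siVCPIP1 library and 6 without the second. ACTG1 had 646.0 ± 435 TPM in siVCPIP1 libraries and 2825 ± 390 TPM in siControl libraries (SD, n = 3 each), a log2 change of -2.32. TUBA1B changed by -1.54 and ACTB by -1.46 on the log2 scale. TUBB4B was the gene that rose (0.37, limma adjusted p = 0.011), and none rose without the second siControl or the second siVCPIP1 library. Tubulin and actin isotypes are close in sequence, and how shared reads were divided is not given in the sources used here.

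Of 11 tested WD-repeat clients, 4 fell, 2 rose and 5 were not called (median -0.35), beside 66.0% lower and 15.0% higher among all genes tested. Under median-of-ratios scaling 2 fell and 7 rose, beside 45.1% lower and 40.3% higher among all genes tested. The count of 2 higher was 1 without the second or the third siControl library or the first siVCPIP1 library. COPB2, a coatomer subunit, fell by 3.14 and GNB1, a G protein beta subunit, by 2.11 on the log2 scale. MLST8, the WD-repeat subunit of both mTOR complexes, rose by 0.97 on the log2 scale, with 163.3 ± 16.3 TPM in siVCPIP1 libraries and 82.9 ± 10.8 TPM in siControl libraries (SD, n = 3 each). Of 5 listed paralogs outside the ring, 2 passed the filter and both fell. MKKS changed by -2.20 and BBS10 by -1.52 on the log2 scale, both chaperonin-like proteins of the Bardet-Biedl syndrome group.

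The genes most like the mean profile of the members over the 6 libraries were MRPL15, PITRM1, ENY2, PGK1 and PRCP. Their distance from it was 0.03 to 0.05 (root mean square of centred log2(TPM + 1), among 5844 genes of at least 10 mean TPM), and their log2 changes ran from -2.41 to -2.32. PGK1, a glycolytic enzyme, stood at 20.74, 21.68 and 53.74 TPM in siVCPIP1 libraries, against 134.6, 162.41 and 162.47 TPM in siControl libraries. As in all 8 chaperonin genes, the third siVCPIP1 library was the highest of that group. Because these genes were picked for a like profile, this pattern and the size of their changes follow from the choice.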

How the data were processed

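The authors deposited TPM per gene symbol (a transcript share scaled by gene length and library total), per the file headers. The submitters' processing notes name GRCh38.p13. For the aligner, the counter, the annotation and the strand setting, nothing is given in the sources used here. RNA was taken with Trizol and sequenced on an MGISEQ-2000RS, per the labels' protocols. TPM keeps no record of read number, so depth is unknown and no interval for counting error is given, and TPM sums to a fixed total, so a gain in some genes lowers the rest.

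Genes of at least 1 mean TPM (10966) were compared as log2(TPM + 1), which understates the change of low genes, by limma 3.58.1 under R 4.3.3 (two-sided, trended eBayes, group as the only term) and Benjamini-Hochberg adjustment over all of them at 0.05. The same fit was run on the ratio of each gene to the chaperonin mean, leaving a member out of its own mean. Single values per library (sums, shares, SD of log2 TPM) were compared with two-sided exact permutation tests. Fold changes given without log2 are ratios of mean TPM. Transcript length, GC content, coding sequence and neighbours come from GENCODE 29, with 1 coding transcript a gene, and the GC and length correction subtracts a spline surface fitted in each library. The scripts were tested on simulated data. Alternatives were the pseudocount, the filter, the scaling, the spread estimate, a replicate block and leaving out each library.

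Named genes were the members, VCPIP1, up to 4 called genes of the largest change per list with all genes of short lists, and the 5 nearest profiles. The neighbouring genes, PFDN5, ARL2, TUBB4B, MLST8, RUVBL2, PIH1D1, COPE and PSMB3 were named after their values were seen where they fall outside this rule. COPG1, COPZ1, COPZ2, HSPA1B, the overlapping genes and some of the cell type markers also fall outside it. The members and the lists were chosen with earlier results of these data known.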

Additional observations from a re-analysis of the deposited data

How the results depend on the processing

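In the 6 fits that leave out 1 library each, 6 to 7 members were lower and 0 higher, 6742 to 7772 genes of the whole table were lower and 1245 to 1851 higher, 2 to 5 members were lower relative to the complex and 2 higher, the summed TPM differed by -1299.95 to -1094.34, and the SD of log2 TPM over the members by 1.34 to 1.67. CCT3 was the member that lost its call in these fits. The counts lower then ran from 5 to 10 for actins and tubulins, and the counts higher from 0 to 2 for actins and tubulins, 1 to 3 for WD-repeat clients, 1 to 2 for the proteasome and 1 to 2 for COPI.

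Median-of-ratios scaling gave 4416 genes higher and 2 members higher, and turned CCT3 to 0.77 and the summed difference to 477.5. It gave 4 prefoldin subunits, 4 tubulin cofactors, 7 actins and tubulins, 7 WD-repeat clients, 3 HSP70 system genes and 6 proteasome subunits higher, and 1 actin or tubulin and 2 WD-repeat clients lower. Quantile normalization gave 4258 genes lower and 4625 higher, with 2 prefoldin subunits, 3 tubulin cofactors, 3 actins and tubulins, 6 WD-repeat clients, 1 HSP70 system gene and 1 proteasome subunit higher, and 1 tubulin cofactor and 5 actins and tubulins lower.

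Removal of the GC and length trend gave 3462 genes lower and 4058 higher, 2 members higher, and CCT3 at 0.69. It gave 3 prefoldin subunits, 1 phosducin-like or thioredoxin-like cofactor, 3 tubulin cofactors, 3 actins and tubulins, 5 WD-repeat clients, 4 HSP70 system genes, 9 proteasome subunits and 1 COPI subunit higher, and 2 WD-repeat clients, 5 HSP70 system genes, 1 R2TP gene and 4 proteasome subunits lower. Together with a replicate block the counts were 3499 lower and 4016 higher, with CCT3 at 0.69, 6 HSP70 system genes and 3 prefoldin subunits lower (2 without the block), and the other list counts as without it. A minimum of 5 TPM gave 4679 genes lower and 1 COPI subunit higher, and a pseudocount of 5 or eBayes without a trend each gave 1 proteasome subunit higher. On the centred log2 scale, the share of CCT4 was 0.26 higher. The causes were not tested, except that the minimum of 5 TPM left fewer genes to test.

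The median log2 change of all genes was -0.14 under median-of-ratios scaling, 0.04 under quantile normalization and 0.07 with the GC and length trend removed, beside -1.12 as deposited.

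Whether the replicate numbers pair the libraries is not known. Deviations of same-numbered libraries from their group means had correlations of 0.53, -0.27 and 0.16, and only the first siVCPIP1 library correlated best with its own number. With 3 libraries a group the deviations are not independent of each other, so these values cannot settle it. With a replicate block, 7 members were lower, and 7085 genes of the table were lower and 1586 higher. Depth is unknown, so it sets no limit that could be given here. Of the limma values for single members under alternatives (log2 change and ratio to the complex), 223 kept their direction and side of the threshold, 8 gained a call, 6 lost it and 3 reversed. The shares are left out of this count because their exact tests could give no call at this size.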

Other observations

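The HSP70 system, which binds clients before the chaperonin does, was measured in 12 genes. Among all genes tested, 66.0% were lower and 15.0% higher. Of the 12, 10 fell, none rose and 2 were not called (limma, adjusted p under 0.05). None was higher at an unadjusted p of 0.05. Their median log2 change was -2.001 beside -1.12 over all genes. Under median-of-ratios scaling 8 were lower and 3 higher, beside 45.1% lower and 40.3% higher among all genes tested. With the GC and length trend removed 5 were lower and 4 higher, beside 31.7% lower and 37.2% higher among all genes tested. DNAJB6, a J protein that restrains aggregation, had 6.42 ± 3.95 TPM in siVCPIP1 libraries and 80.5 ± 11.4 TPM in siControl libraries (SD, n = 3 each), a log2 change of -3.57. HSPH1, an exchange factor for HSP70, changed by -3.37 and BAG2 by -3.22 on the log2 scale. HSPA1A changed by -2.69, and its near-identical copy HSPA1B makes both values uncertain. The mitochondrial chaperonin HSPD1 had 56.6 ± 34.8 TPM in siVCPIP1 libraries and 550.3 ± 43.4 TPM in siControl libraries, a log2 change of -3.41, and its lid HSPE1 changed by -2.47. The heat shock factors moved in opposite directions, HSF1 with 187.2 ± 2.78 TPM in siVCPIP1 libraries and 128.9 ± 17.7 TPM in siControl libraries (log2 change 0.54, limma adjusted p = 0.0051), and HSF2 with a log2 change of -2.27 (limma adjusted p = 4.9e-05).

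The R2TP and prefoldin-like complex, another assembly chaperone, was divided. Of 7 genes 3 fell, 3 rose and 1 was not called, beside 66.0% lower and 15.0% higher among all genes tested. With the GC and length trend removed 1 was lower and 4 higher. The counts of this paragraph with that trend removed stand beside 31.7% lower and 37.2% higher among all genes. Those under median-of-ratios scaling stand beside 45.1% lower and 40.3% higher. URI1 (-3.09), RPAP3 (-2.46) and RUVBL1 (-1.31) fell, while UXT (0.91), RUVBL2 (0.54) and PIH1D1 (0.38) rose on the log2 scale. The ATPases RUVBL1 and RUVBL2, which form a joint ring, stood at 34.2 ± 13.6 and 538.3 ± 35.3 TPM in siVCPIP1 libraries and at 82.9 ± 7.67 and 372.2 ± 41.4 TPM in siControl libraries (SD, n = 3 each). In the 20S proteasome 9 of 14 subunits fell, 2 rose and 3 were not called, close to the shares of all genes (66.0% lower, 15.0% higher), from PSMA3 (-3.46) to PSMB3 (0.50) on the log2 scale, and 6 fell and 6 rose under median-of-ratios scaling. With the GC and length trend removed 4 were lower and 9 higher. The count of 2 higher was 1 without any single library other than the third siVCPIP1 library. In COPI 6 of 9 genes, paralogs included, fell, 2 rose and 1 was not called, from COPB1 (-4.32) to COPE (0.92), and 1 rose without the first siControl library. With the GC and length trend removed 4 were lower and 1 higher.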
